A study of Rattus norvegicus with 20 samples.

Results

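The genes examined here are those that carry, activate, bind or clear the chemotherapeutic agents 5-fluorouracil (5-FU) and irinotecan (CPT-11): the drug targets Tyms, Top1 and Top1mt, the 5-FU activating enzymes Umps, Upp1 and Tymp, the clearing enzyme Dpyd, and the transporters Slc29a1, Abcg2 and Abcc1. They were chosen by gene symbol. All 10 had a row among the 32495 named genes of the count table, and 9 passed the filter on low counts, which 11716 genes passed in all. The exception was Abcg2.

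5-FU is a fluorinated uracil that enters cells and becomes active only once it is built into nucleotides. One of these, FdUMP, blocks thymidylate synthase (Tyms), while others are incorporated into RNA and DNA. Most of a 5-FU dose is broken down by dihydropyrimidine dehydrogenase (Dpyd), chiefly in the liver. CPT-11 is a prodrug that carboxylesterases cleave to SN-38, which traps topoisomerase I on DNA, is glucuronidated in the liver and is pumped out of cells by ABC transporters. Mature skeletal muscle fibres do not divide, whereas the tumour, gut lining and marrow in which these agents mainly act do.

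RNA from the gastrocnemius, a calf muscle, was sequenced as ribosomal RNA-depleted libraries from female Fischer 344 rats, and every rat in every group carried the transplanted Ward colorectal carcinoma. TUMOUR STD rats (5 samples) received no chemotherapy and ate the standard diet. CHEMO STD rats (7 libraries) received CPT-11 followed by 5-FU and ate the standard diet. CHEMO FO rats (8 samples) received the same chemotherapy and were moved to a diet with fish oil, a source of the fatty acids EPA and DHA, when it began. No tumour-free rats and no untreated rats on fish oil were analysed here, so neither an effect of the tumour nor an effect of the diet without chemotherapy can be read from these groups. In the chemotherapy groups, muscle was collected some days after the last drug dose, so the values describe muscle after exposure and not during it.

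Each TUMOUR STD library held 5428544 to 10887041 counts, each CHEMO STD library 3023899 to 10537322 and each CHEMO FO library 3041142 to 9130631. CHEMO STD replicates 1 and 2 differed by more than counting noise alone gives but were far closer to each other than any of the 58 remaining pairs inside a group (chi-square per gene 2.23 against 13.7 to 255). Their counts were summed and they were counted as 1 sample, giving 6 samples in CHEMO STD and 19 in all. The tissue label was met by the data, because muscle fibre genes such as Ckm and Acta1 summed to 135306 to 262247 CPM (counts scaled by library size) in every sample. Some samples stood apart in their cellular markers. TUMOUR STD 10 held 334.6 CPM of keratinocyte genes against a median of 2.44 CPM in its group, and CHEMO FO 16 held 74.5 CPM. CHEMO STD 7 held 182.6 CPM of pan-leukocyte genes against a group median of 31.3 CPM. CHEMO FO 18 had the least muscle fibre RNA (135306 CPM, group median 238802) and the most macrophage RNA (835.1 CPM, group median 343.0). For several results that rest on these samples, values with and without them are given. In bulk tissue, fewer cells of a type and less RNA per cell cannot be told apart.

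No member was differentially expressed in any of the 3 comparisons at the study's thresholds, an unadjusted p value below 0.05 with a change of at least 1.5-fold. The first comparison, CHEMO STD against TUMOUR STD, asked what differed in muscle after the drugs. Among all genes tested by edgeR's quasi-likelihood test, 2.38% (279 genes) were called, and 0 of the 9 members were. At an unadjusted p value below 0.05 alone, where 6.50% of all genes passed, 2 members passed, the nucleoside transporter Slc29a1 and the efflux pump Abcc1, and both were lower after chemotherapy. For the effect of the diet, CHEMO FO was set against CHEMO STD. The called share of all genes was 1.66% (195 genes), with 0 members, and 4.51% of all genes but 0 members had a p value below 0.05. For CHEMO FO against TUMOUR STD, 3.60% of all genes (422) were called and 0 members were. There, 9.04% of all genes and 1 member, again Slc29a1, had a p value below 0.05. After Benjamini-Hochberg adjustment over all genes, 0 genes passed in any comparison (smallest adjusted p by edgeR 0.652, 0.974 and 0.426).

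Higher and lower values were about evenly divided among the members. Against TUMOUR STD, 4 members had higher and 5 lower values in CHEMO STD (median log2 fold change -0.06), between the diets 5 had higher and 4 lower values in CHEMO FO with a median of 0.00, and for CHEMO FO against TUMOUR STD the split was 3 and 6 with a median of -0.06. The median over all genes tested was 0.00, -0.01 and 0.00 in the same order. The 2 comparisons with TUMOUR STD share those 5 samples. For no member were the groups free of overlap, and over all genes the groups did not overlap for 0.478%, 0.0768% and 0.282% in the same order. At such low shares, this does not set the members apart from other genes.

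How closely the data bound each change differed between the comparisons. In CHEMO FO versus CHEMO STD, the 95% confidence interval of the fold change lay within 1.5-fold in either direction for 7 of the 9 members, namely Tyms, Top1, Top1mt, Umps, Upp1, Slc29a1 and Abcc1, and for 55.8% of all genes. In CHEMO STD versus TUMOUR STD this held for 1 member, Umps, and for 43.0% of all genes. Between CHEMO FO and TUMOUR STD it held for 2 members, Umps and Abcc1, and for 47.8% of all genes. For the others, a change of 1.5-fold or more in some direction remained inside the interval.

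**Figure D1:**
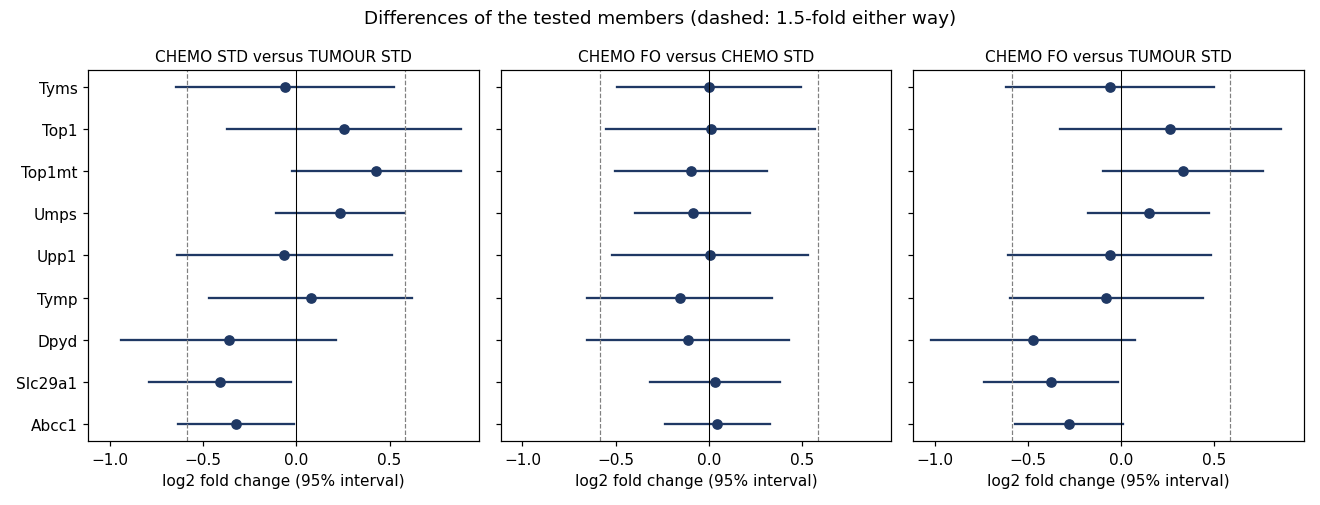
Log2 fold change (x axis) with its 95% confidence interval for the 9 tested members (y axis) in each of the 3 comparisons, from edgeR's fit of all 3 groups, with dashed lines at 1.5-fold either way. The intervals of Slc29a1 and Abcc1 lie below 0 in CHEMO STD versus TUMOUR STD, and every interval in CHEMO FO versus CHEMO STD spans 0.

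Among the targets, Tyms makes the thymidylate that DNA synthesis needs and is the enzyme FdUMP blocks. Its expression was low in muscle. In TUMOUR STD it was 2.09, 1.2003, 2.10, 2.11 and 2.46 CPM in samples 8 to 12. In CHEMO STD it ranged from 1.47 to 2.82 CPM with a median of 1.85, and in CHEMO FO from 1.30 to 2.66 CPM with a median of 1.76. The groups overlapped throughout, with means of 1.99 ± 0.471 (SD, n = 5), 1.93 ± 0.468 (n = 6) and 1.91 ± 0.494 CPM (n = 8). Tyms was 0.958-fold in CHEMO STD relative to TUMOUR STD (95% interval 0.638 to 1.44) and 1.00-fold in CHEMO FO relative to CHEMO STD (0.711 to 1.41). These values rest on 4 to 37 counts per sample, and the spread within groups was at or below that of counting alone (variance ratios 0.990, 0.504 and 0.738), so changes smaller than these intervals were not detectable at this depth.

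Top1, the nuclear topoisomerase that relieves DNA supercoiling and is trapped by SN-38, had the widest spread for its level among the 9 tested members, with a within-group SD of 0.528 on the log2 scale where the 500 genes nearest in level had a median of 0.300. In TUMOUR STD samples 8 to 12 it was at 23.5, 21.0, 10.4, 17.9 and 15.7 CPM. CHEMO STD ranged from 15.6 to 26.6 CPM with a median of 22.0. CHEMO FO had a median of 17.2 CPM and ranged from 9.86 CPM in sample 16 to 53.0 CPM in sample 18. Sample 18 was 3.11-fold above the median of the other 7 CHEMO FO samples (17.1 CPM), none of which exceeded 20.3 CPM.

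Group means of Top1 were 17.7 ± 5.04 (SD, n = 5), 21.2 ± 4.33 (n = 6) and 20.8 ± 13.3 CPM (n = 8). With all samples, Top1 was 1.19-fold in CHEMO STD relative to TUMOUR STD (95% interval 0.772 to 1.85) and 1.01-fold in CHEMO FO relative to CHEMO STD (0.683 to 1.48). The latter value depended on a single library. Without CHEMO FO 18, the log2 fold change for the diet comparison was -0.36 in place of 0.01 (edgeR, unadjusted p 0.0595), and that for CHEMO FO versus TUMOUR STD was -0.10 in place of 0.26. A setting chosen after the data were seen left out both CHEMO FO 18 and TUMOUR STD 10. There, the log2 fold change for the diet comparison was -0.36 (edgeR, unadjusted p 0.0317). For the same diet comparison, limma voom with sample weights gave -0.34 (unadjusted p 0.0476) on all samples. Neither reached 1.5-fold. CHEMO FO 18 is the sample with the least muscle fibre and most macrophage RNA, and the part of these in its Top1 value was not tested.

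Top1mt encodes the topoisomerase I of mitochondria, which acts on the mitochondrial genome. Samples 8 to 12, of TUMOUR STD, had 6.62, 4.10, 7.08, 5.36 and 7.04 CPM. CHEMO STD ranged from 6.43 to 9.55 CPM (median 8.50) and CHEMO FO from 5.32 to 11.2 CPM (median 7.33). In 4 of the 6 CHEMO STD samples Top1mt was above every TUMOUR STD sample, while the other two overlapped them. Means were 6.04 ± 1.29 (SD, n = 5), 8.15 ± 1.25 (n = 6) and 7.64 ± 2.20 CPM (n = 8).

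Top1mt was 1.35-fold in CHEMO STD relative to TUMOUR STD (95% interval 0.983 to 1.84), with an unadjusted p value of 0.0631 and an adjusted p of 0.719 by edgeR, and 1.26-fold in CHEMO FO relative to TUMOUR STD (0.935 to 1.70). It passed both thresholds for CHEMO STD versus TUMOUR STD in limma voom with sample weights alone (log2 fold change 0.59, unadjusted p 0.00896). When each of the 20 libraries was left out in turn, its log2 fold change there stayed between 0.31 and 0.51, and the unadjusted p value was below 0.05 in 3 of the 20 fits. Between the diets Top1mt was 0.937-fold (0.707 to 1.24).

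**Figure D2:**
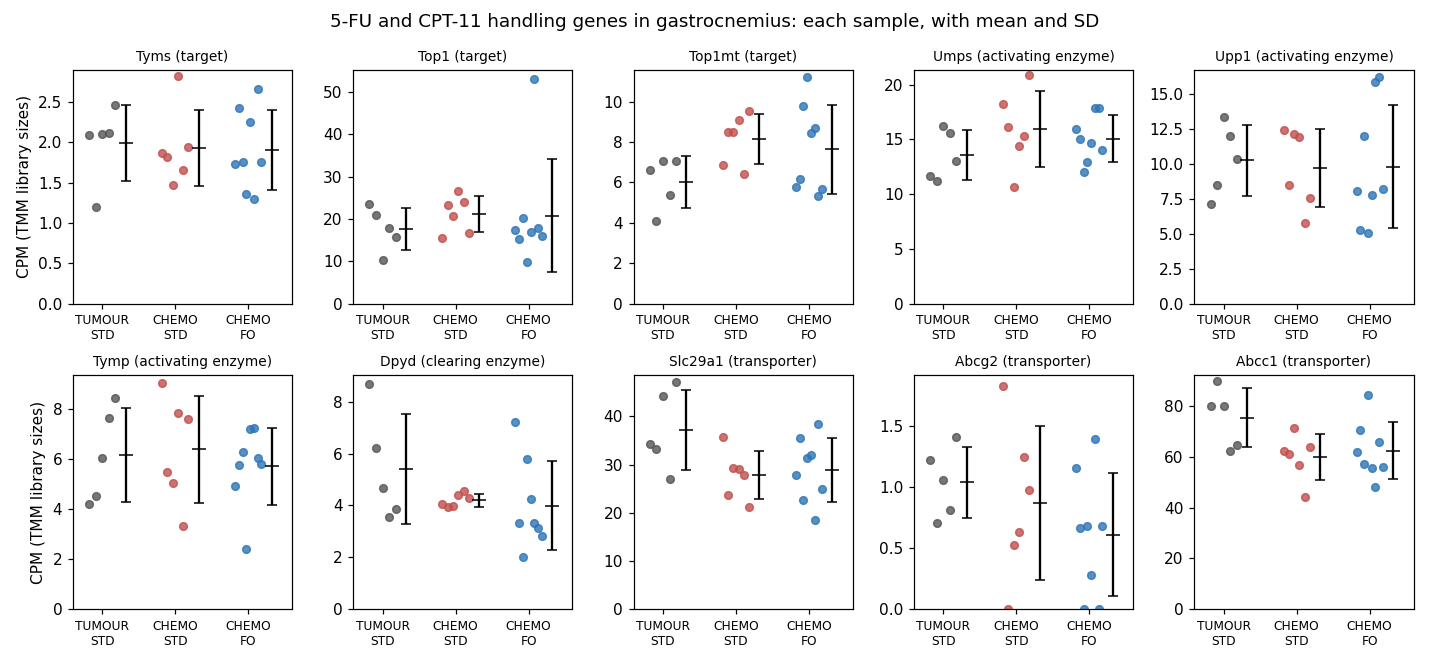
Expression of each of the 10 members in CPM on TMM library sizes (y axis, from 0) in TUMOUR STD, CHEMO STD and CHEMO FO (x axis), with 1 point per sample and the mean and SD beside the points. Top1 in CHEMO FO 18 lies at 53.0 CPM above all other samples, Dpyd is tightly grouped in CHEMO STD, and the groups overlap for every gene.

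Of the activating enzymes, Umps joins 5-FU directly to ribose phosphate in its role as orotate phosphoribosyltransferase, within the synthesis of uridine nucleotides. Its values in TUMOUR STD 8 to 12 were 11.7, 11.2, 16.3, 15.6 and 13.0 CPM. CHEMO STD ranged from 10.7 to 20.9 CPM (median 15.7) and CHEMO FO from 12.0 to 17.9 CPM (median 14.9). It was 1.18-fold in CHEMO STD relative to TUMOUR STD (95% interval 0.927 to 1.49) and 0.943-fold in CHEMO FO relative to CHEMO STD (0.761 to 1.17).

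Upp1, uridine phosphorylase, adds ribose to 5-FU. Without chemotherapy, samples 8 to 12 had 7.14, 8.50, 13.4, 12.0 and 10.4 CPM. CHEMO STD ranged from 5.80 to 12.4 CPM (median 10.2), and CHEMO FO from 5.10 to 16.2 CPM (median 8.18). Within CHEMO FO, samples 18 and 19 were highest at 15.9 and 16.2 CPM. Upp1 was 0.956-fold in CHEMO STD relative to TUMOUR STD (0.641 to 1.43) and 1.00-fold in CHEMO FO relative to CHEMO STD (0.697 to 1.44).

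Tymp, thymidine phosphorylase, adds deoxyribose to 5-FU and is also known as a platelet-derived endothelial growth factor. TUMOUR STD 8 to 12 gave 4.18, 4.50, 6.03, 7.63 and 8.45 CPM, CHEMO STD ranged from 3.32 to 9.02 CPM (median 6.53), and CHEMO FO from 2.38 to 7.23 CPM (median 5.93). The lowest CHEMO FO sample was 16, on 7 counts of Tymp. That sample was also the lowest of its group in Upp1 and Top1. Tymp was 1.05-fold in CHEMO STD relative to TUMOUR STD (0.722 to 1.54) and 0.898-fold in CHEMO FO relative to CHEMO STD (0.636 to 1.27).

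Dpyd catalyses the rate-limiting step of pyrimidine and 5-FU breakdown. TUMOUR STD samples 8 to 12 had 8.71, 6.20, 4.69, 3.57 and 3.87 CPM, a wide spread in which samples 8 and 9 were highest. CHEMO STD was tightly grouped, from 3.95 to 4.56 CPM with a median of 4.17. CHEMO FO ranged from 2.01 to 7.24 CPM with a median of 3.33, and sample 13 was highest. Means were 5.41 ± 2.11 (SD, n = 5), 4.20 ± 0.246 (n = 6) and 3.99 ± 1.72 CPM (n = 8). The spread in CHEMO STD was smaller than counting alone gives (variance ratio 0.0799), on 13 to 80 counts per sample.

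Dpyd was 0.778-fold in CHEMO STD relative to TUMOUR STD (95% interval 0.521 to 1.16), 0.925-fold in CHEMO FO relative to CHEMO STD (0.635 to 1.35) and 0.720-fold in CHEMO FO relative to TUMOUR STD (0.492 to 1.05), the last with an unadjusted p value of 0.0857 and an adjusted p of 0.576 by edgeR. This last difference passed both unadjusted thresholds without TUMOUR STD 11 (log2 fold change -0.59, p 0.0441 by edgeR) or without CHEMO FO 13 (-0.63, p 0.0190 by edgeR), and was -0.24 without TUMOUR STD 8.

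The transporters held both members with an unadjusted p value below 0.05. Slc29a1, the equilibrative nucleoside transporter ENT1, moves nucleosides and nucleoside drugs across the plasma membrane in both directions. In TUMOUR STD samples 8 to 12 it was at 34.3, 33.2, 44.2, 27.0 and 47.2 CPM. CHEMO STD ranged from 21.2 CPM in sample 7 to 35.7 CPM in the combined sample of replicates 1 and 2 (median 28.5). CHEMO FO ranged from 18.5 CPM in sample 18 to 38.5 CPM in sample 19 (median 29.5). In 4 of the 5 TUMOUR STD samples Slc29a1 was higher than in 5 of the 6 CHEMO STD samples, and the groups overlapped.

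Group means of Slc29a1 were 37.2 ± 8.32 (SD, n = 5), 27.8 ± 5.03 (n = 6) and 28.9 ± 6.74 CPM (n = 8). It was 0.753-fold in CHEMO STD relative to TUMOUR STD (95% interval 0.577 to 0.982, edgeR unadjusted p 0.0372 and adjusted p 0.719) and 0.770-fold in CHEMO FO relative to TUMOUR STD (0.600 to 0.988, edgeR unadjusted p 0.0410 and adjusted p 0.543). Between the diets it was 1.02-fold (0.803 to 1.30). With each library left out in turn, Slc29a1 had lower values after chemotherapy in all 20 fits, with log2 fold changes from -0.51 to -0.31, but the unadjusted p value was below 0.05 in 15 of them. It was not below 0.05 without CHEMO STD 3, 6 or 7 or without TUMOUR STD 10 or 12. For CHEMO FO against TUMOUR STD the log2 fold changes ranged from -0.47 to -0.27 and p was below 0.05 in 13 of the 20 fits, the exceptions being the fits without CHEMO STD 6, TUMOUR STD 10 or 12, or CHEMO FO 13, 15, 18 or 20.

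Abcc1, the pump MRP1, exports glutathione and glucuronide conjugates and several drugs. Samples 8 to 12, of TUMOUR STD, had 80.3, 90.1, 80.2, 62.4 and 64.9 CPM. CHEMO STD ranged from 44.4 to 71.4 CPM (median 61.9) and CHEMO FO from 48.1 to 84.7 CPM (median 59.7). In 3 of the 5 TUMOUR STD samples Abcc1 was above all CHEMO STD samples, and the other two lay within their range. Means were 75.6 ± 11.7 (SD, n = 5), 60.1 ± 9.04 (n = 6) and 62.6 ± 11.3 CPM (n = 8).

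Abcc1 was 0.798-fold in CHEMO STD relative to TUMOUR STD (95% interval 0.643 to 0.990, edgeR unadjusted p 0.0408 and adjusted p 0.719) and 0.824-fold in CHEMO FO relative to TUMOUR STD (0.673 to 1.01, edgeR unadjusted p 0.0595 and adjusted p 0.555). Between the diets it was 1.03-fold (0.850 to 1.25). With each library left out, it had lower values after chemotherapy in all 20 fits, with log2 fold changes from -0.39 to -0.25, and the unadjusted p value was below 0.05 in 14 of them. The exceptions were the fits without CHEMO STD 3, 5 or 6 or without TUMOUR STD 8, 9 or 10.

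Abcg2, the pump BCRP, exports SN-38 and marks endothelial and side population stem cells. It was the rarest member, with at most 36 counts in a sample. Its values in TUMOUR STD 8 to 12 were 1.22, 0.700, 1.05, 0.812 and 1.41 CPM, CHEMO STD ranged from 0 to 1.82 CPM (median 0.801) and CHEMO FO from 0 to 1.39 CPM (median 0.670). It had 0 counts in CHEMO STD 3, CHEMO FO 15 and CHEMO FO 19, which allows up to 0.912, 0.752 and 0.726 CPM there (3 counts each, counting error only), so low expression in those samples cannot be told from none. As Abcg2 did not pass the filter, its mean log2 CPM was compared by two-sided exact permutation tests. The difference was -0.41 in CHEMO STD versus TUMOUR STD (exact p = 0.465), -0.38 in CHEMO FO versus CHEMO STD (exact p = 0.470) and -0.78 in CHEMO FO versus TUMOUR STD (exact p = 0.106). The last was -0.93 without CHEMO FO 18 (exact p = 0.0492).

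The sequences before the start sites of the 2 transporters with an unadjusted p value below 0.05 are shown as the regulatory DNA of the members with the smallest p values. They are the 250 bases before the RefSeq start in assembly GRCr8, on the gene's strand and 5′ to 3′, with each GC box (GGGCGG or its complement CCGCCC) in capitals. Slc29a1 lies at chr9:22896849-22897098 (plus strand) and Abcc1 at chr10:1162368-1162617 (minus strand).
Slc29a1: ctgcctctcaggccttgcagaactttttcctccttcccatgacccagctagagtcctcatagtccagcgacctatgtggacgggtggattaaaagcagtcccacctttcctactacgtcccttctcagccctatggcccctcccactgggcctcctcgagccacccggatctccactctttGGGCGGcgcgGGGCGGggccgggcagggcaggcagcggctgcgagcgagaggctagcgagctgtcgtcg
Abcc1: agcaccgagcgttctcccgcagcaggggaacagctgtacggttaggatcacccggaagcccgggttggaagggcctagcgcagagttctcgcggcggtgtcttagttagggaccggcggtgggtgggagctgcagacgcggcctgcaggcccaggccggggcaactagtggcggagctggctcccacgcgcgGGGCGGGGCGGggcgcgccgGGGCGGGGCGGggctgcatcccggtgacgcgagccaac
Slc29a1 had 2 GC boxes close to its start, and Abcc1 had 4, in pairs that overlap. Of the 8 members with a promoter entry, 5 (Top1, Dpyd, Slc29a1, Abcg2 and Abcc1) held a GC box, and Tyms, Upp1 and Tymp held none, while 30.5% of 33469 rat promoters of the same length held one. A TATAAA box was found in Upp1 alone (12.9% of all promoters), a CCAAT box in Upp1 and Tymp (34% of all promoters) and the E-box CACGTG in none of the 8 (5.59%). A match describes these letters only. Umps and Top1mt had no entry.

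Slc29a1, Upp1, Tymp, Tyms and Abcg2 are known to be high in particular cell types, so their deviations from the group means were set beside those of marker lists in the same 19 samples. Slc29a1 went with endothelial genes (11 genes, such as Cdh5 and Kdr) with Pearson's r 0.556 (permutation p = 0.0200, adjusted over the 5 relations p = 0.100 by permutation) and Spearman's rho 0.505 (permutation p = 0.0416, adjusted p = 0.172 by permutation). Without the 2 samples whose endothelial deviations lay farthest from the median, CHEMO STD 1+2 and CHEMO FO 19, r was 0.343. That setting was added after the data were seen. Without the 2 samples farthest in endothelial level itself, TUMOUR STD 8 and 10, the planned setting, r was 0.548. The size of r thus depended on which samples were left out. The relation did not pass the adjusted threshold.

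Endothelial genes also differed in level between the groups in the direction of Slc29a1. Their sum ranged from 354.9 to 480.5 CPM in TUMOUR STD, from 309.6 to 428.8 CPM in CHEMO STD and from 312.1 to 418.8 CPM in CHEMO FO, and 8 of 11 had lower values after chemotherapy on the standard diet (median log2 fold change -0.21), although 0 of them were called. None of the 11 was at 0 in any sample. Their part in the lower Slc29a1 values was not tested. Smooth muscle and pericyte genes were lower as well in CHEMO STD, in 6 of 7 tested, of which Myh11, Acta2, Tagln, Cspg4 and Notch3 were called at log2 fold changes from -1.11 to -0.74. Slow myosin Myh7 was also called lower in that comparison, the 1 called gene of 9 muscle fibre genes, of which 3 had higher and 6 lower values. The leukocyte genes Ptprc and Coro1a and the macrophage gene Lyz2 were called higher in CHEMO STD (log2 fold changes 1.16, 1.49 and 0.72). Without CHEMO STD 7 they were at 0.39, -0.01 and 0.31 and were not called. Lyz2 was the 1 called gene of 12 macrophage genes, of which 8 had higher and 4 lower values in CHEMO STD. The 4 tested pan-leukocyte genes all had higher values. Between the diets Ptprc, Coro1a and Lyz2 were called lower in CHEMO FO (-1.16, -1.75 and -0.80). Of the 12 macrophage genes, 4 had higher and 8 lower values in CHEMO FO. Without CHEMO STD 7, Ptprc, Coro1a and Lyz2 were at -0.38, -0.24 and -0.39 and were not called. In that fit Ptprc and Lyz2 still had an unadjusted p below 0.05 by edgeR (0.0461 and 0.0159) but did not reach 1.5-fold. The myelin genes Mbp and Prx were among the others called lower in CHEMO FO (-1.12 and -0.82). Without CHEMO STD 1+2 they were at -0.60 and -0.43 and were not called, and without CHEMO STD 7 Prx was at -0.69 and was not called. For CHEMO FO against TUMOUR STD, Cd163 was called higher, and Myh11, Acta2, Tagln, Prx, Col1a1 and Myh7 were among those called lower.

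Upp1 and Tymp were set beside 12 macrophage genes, which summed to 235.3 to 412.0 CPM in TUMOUR STD, 299.4 to 536.2 CPM in CHEMO STD and 241.0 to 835.1 CPM in CHEMO FO, with none at 0 in any sample. Upp1 gave r 0.469 (permutation p = 0.0704, adjusted p = 0.176 by permutation) and rho 0.402 (permutation p = 0.114, adjusted p = 0.189 by permutation). Its r was 0.232 without the 2 samples farthest from the median macrophage deviation, CHEMO STD 1+2 and CHEMO FO 18. The size of r thus depended on those samples. Tymp gave r 0.359 (permutation p = 0.154, adjusted p = 0.244 by permutation) and rho 0.451 (permutation p = 0.0689, adjusted p = 0.172 by permutation), with r 0.182 without the same samples. Tyms against 8 proliferation genes gave r -0.334 (permutation p = 0.195, adjusted p = 0.244 by permutation) and rho -0.211 (permutation p = 0.409, adjusted p = 0.512 by permutation), and -0.182 without CHEMO STD 7 and CHEMO FO 18. Abcg2 against endothelial genes gave r 0.113 (permutation p = 0.647, adjusted p = 0.647 by permutation) and rho 0.0755 (permutation p = 0.754, adjusted p = 0.754 by permutation), and 0.215 without CHEMO STD 1+2 and CHEMO FO 19. Thus 0 of the 5 relations passed an adjusted p of 0.05.

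**Figure D3:**
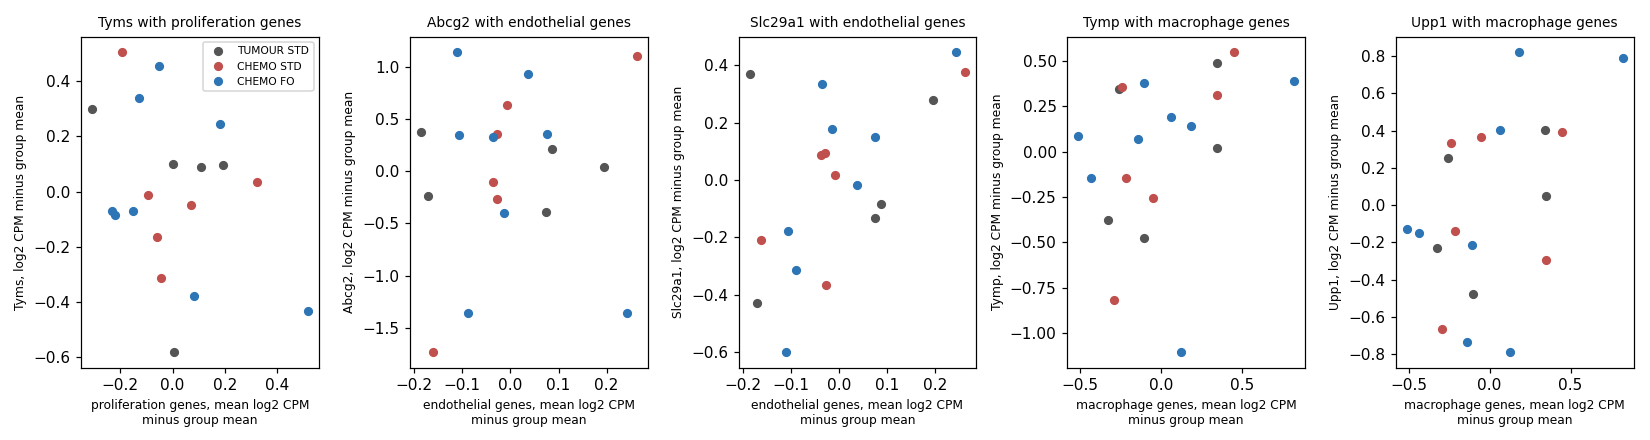
Log2 CPM of a member minus its group mean (y axes) against the mean log2 CPM of a cell type list minus its group mean (x axes) for the 5 relations, with 1 point per sample coloured by group. Pearson's r of Slc29a1 (0.556) falls to 0.343, and that of Upp1 (0.469) to 0.232, when the 2 samples with the most extreme x values are left out. In the planned setting, without TUMOUR STD 8 and 10, r of Slc29a1 was 0.548.

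Among the members themselves, the description of how deviations went together over the 19 samples was led by a positive pair. Upp1 and Tymp, which both add a sugar to 5-FU, had r 0.617 (rho 0.540). Dpyd, which clears 5-FU, went the opposite way to both, with r -0.557 for Tymp (rho -0.498) and -0.501 for Upp1 (rho -0.560). CHEMO FO 16 was far from its group mean in all of these, at -0.79 for Upp1, -1.11 for Tymp and 0.60 for Dpyd. Those values rest on 15, 7 and 17 counts. Top1 went against Slc29a1 (r -0.581, rho -0.496) and Abcc1 (r -0.532, rho -0.340). CHEMO FO 18 had the highest Top1 and the lowest Slc29a1 and Abcc1 of its group. No pair was computed without CHEMO FO 16 or CHEMO FO 18. All points share library depth and tissue composition, and these correlations describe the samples without a test.

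**Figure D4:**
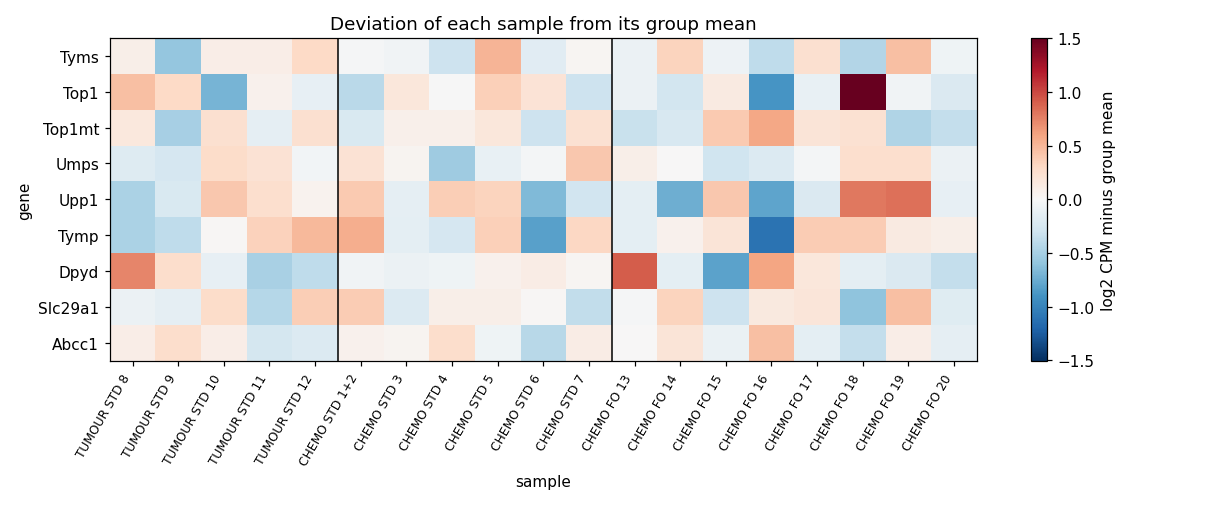
Log2 CPM minus the group mean (colour, from -1.5 blue to 1.5 red) for the 9 tested members (y axis) in each of the 19 samples (x axis), with black lines between the groups. CHEMO FO 18 combines a high Top1 and Upp1 with a low Slc29a1, and CHEMO FO 16 combines a low Top1, Upp1 and Tymp with a high Dpyd.

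The genes whose deviations were most like each member's, among all 11716 tested, are given as a description over 19 samples. For Top1 they were the protease Adam9 (r 0.948), the chaperone Hspa4 (0.946) and the kinase Slk (0.941), which stayed at 0.887, 0.887 and 0.881 without CHEMO FO 18. For Slc29a1 they were the mitochondrial carnitine enzyme Cpt2 (r 0.910), Fbln7 (0.867) and the matrix proteoglycan Lum (0.866), and these were 0.883, 0.837 and 0.821 without CHEMO FO 18. For Abcc1 they were Fads6 (0.783), Tubgcp2 (0.770) and Atn1 (0.761), which were at 0.723, 0.706 and 0.697 without CHEMO FO 16. For Umps they were Rab8a (0.857), Ppp1r37 (0.793) and Ftl1 (0.769), and for Dpyd Shld2 (0.851), Zbtb46 (0.762) and Susd5 (0.720). For Tymp they were the lysosomal transporter Slc17a5 (0.856), Mc5r (0.835) and Rce1 (0.806). Without CHEMO FO 16 these were at 0.775, 0.794 and 0.681. For Upp1 they were Snapc1 (0.819), Wdr73 (0.767) and Cers2 (0.756). For Top1mt they were Dctd, a deaminase of deoxycytidylate (0.739), Slc38a4 (0.734) and Ap3b1 (0.731). Without CHEMO FO 16 these were at 0.661, 0.822 and 0.674. For Tyms they were Prtfdc1 (0.741), Lrrc61 (0.702) and Ckmt2 (0.697).

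Beyond the members, 81 other genes that handle these agents were listed by role, of which 72 had a row in the table and 51 passed the filter. After chemotherapy on the standard diet 27 had higher and 24 lower values than TUMOUR STD (median log2 fold change 0.03), and 0 were called. Between the diets 22 had higher and 29 lower values in CHEMO FO (median -0.07), and 1 was called, where 1.66% of all genes were. For CHEMO FO against TUMOUR STD the split was 25 and 26 (median -0.03), and 0 were called.

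The called gene was Uck2, a uridine-cytidine kinase that phosphorylates fluorouridine, which Upp1 produces. It was 10.6, 9.10, 11.9, 14.1 and 14.1 CPM in TUMOUR STD samples 8 to 12, ranged from 6.92 to 14.3 CPM in CHEMO STD (median 10.6), and from 10.4 to 46.3 CPM in CHEMO FO (median 12.4). The highest value was again CHEMO FO 18. Its log2 fold change in CHEMO FO versus CHEMO STD was 0.66 (standard error 0.295, edgeR unadjusted p 0.0365, adjusted p 0.974), and without CHEMO FO 18 it was 0.21 (edgeR unadjusted p 0.237) and no longer called. It was also not called without CHEMO STD 4 (0.54) or 5 (0.62).

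Of the 14 tested genes of fluoropyrimidine activation and nucleotide conversion, 10 had higher and 4 lower values in CHEMO STD against TUMOUR STD, and 3 had higher and 11 lower values in CHEMO FO against CHEMO STD, with medians of 0.10 and -0.17. CHEMO STD is shared by these comparisons. Besides Uck2, 1 gene here had an unadjusted p value below 0.05 between the diets, the ribonucleotide reductase subunit Rrm1 (log2 fold change -0.24, edgeR unadjusted p 0.0497). By CPM, which does not correct for gene length, Nme2, a nucleoside diphosphate kinase, led this group at 223.2 CPM. Cytidine deaminase (Cda) was at 0 counts in all 19 samples.

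Both breakdown enzymes downstream of Dpyd were almost absent, with Upb1 at 0.0129 CPM and Dpys at 0.00526 CPM on average and at 0 counts in 17 and 18 of the 19 samples. Neither was tested. Of 5 genes that remove dUTP and uracil, led by the glycosylase Tdg at 36.4 CPM, 3 had higher and 2 lower values after chemotherapy on the standard diet, and between the diets 2 had higher and 3 lower values in CHEMO FO. Of 10 folate cycle genes, led by Mthfd1 at 65.0 CPM, the counts were 4 and 6, then 7 and 3.

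Genes of irinotecan activation and clearance were sparse, and 4 of the 14 with a row were tested. The highest was the carboxylesterase Ces1d at 11.4 CPM. The carboxylesterases Ces2a, Ces2e, Ces2i and Ces2j were at 0 counts in all 19 samples. The main SN-38 glucuronidating enzyme Ugt1a1 was not analysed here, since no row carried its symbol. Of 11 topoisomerase and cleavage complex repair genes, led by Parp1 at 75.1 CPM, 6 had higher and 5 lower values after chemotherapy on the standard diet, and between the diets 7 had higher and 4 lower values in CHEMO FO. Of 7 tested drug and nucleoside transporters, led by Abcc5 at 61.5 CPM, relative to TUMOUR STD 6 had lower values in CHEMO STD (median -0.21) and 5 in CHEMO FO (median -0.22), but 0 were called. The uptake transporters Slco1b2 and Slc22a7 were at 0 counts in all samples.

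**Figure D5:**
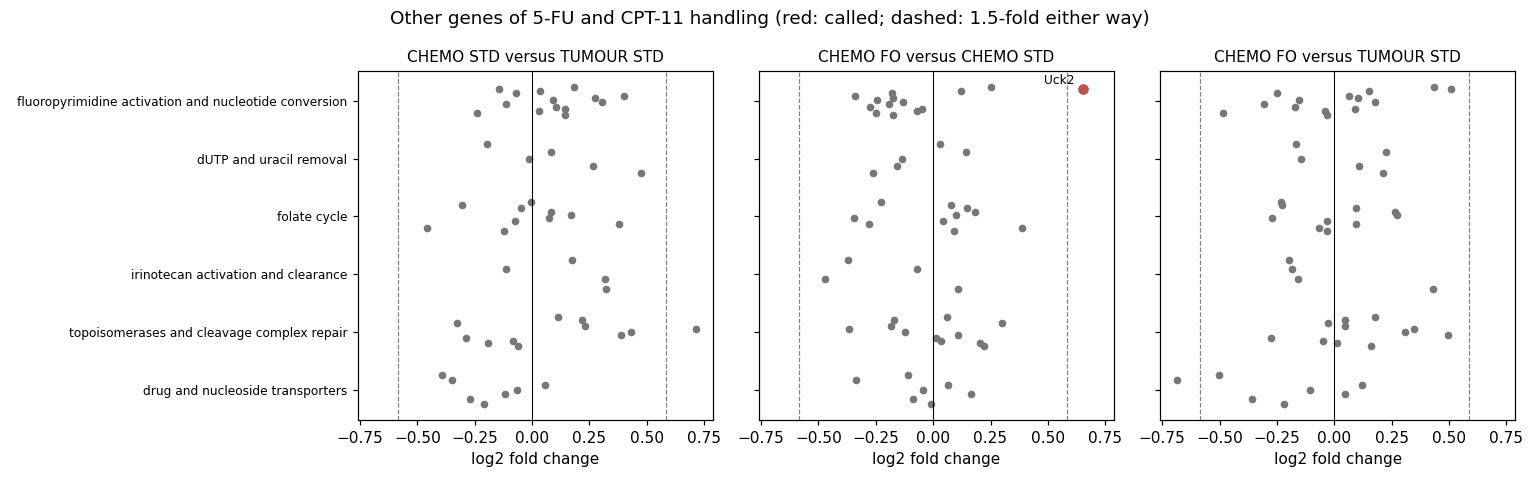
Log2 fold change (x axis) of the tested genes of each handling group beyond the members (y axis) in the 3 comparisons, with 1 point per gene and dashed lines at 1.5-fold either way. Uck2 in CHEMO FO versus CHEMO STD is the single red, called point, and transporters lie mostly below 0 in both comparisons with TUMOUR STD.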

How the data were processed

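RNA of the gastrocnemius was sequenced in 20 libraries. The authors trimmed the reads with Trim Galore 0.4.1, aligned them to Rnor 6 with TopHat2 2.0.10 and Bowtie2, and deposited unnormalised whole-number counts per Ensembl gene. How reads were counted, strand included, is not given in the sources used here. Rows with no gene name (388 of 32883, 0.102% to 0.272% of counts) were left out, and 0 columns were unused. Groups were taken from the sample titles. Nothing in the labels says that samples of a group came from separate animals, so p values measure the spread between samples.

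Counts were fitted in R 4.3.3 with edgeR 4.0.16 (minimum count 10, minimum total 15, TMM, quasi-likelihood, 3 groups together). CHEMO STD replicates 1 and 2 were summed. Leaving out samples by their deviations in a marker list, and the marker genes without CHEMO STD 1+2 or 7, were added after seeing the data. A call needs an unadjusted p below 0.05 and at least 1.5-fold. CPM use TMM library sizes, and log2 CPM a prior count of 2. A 95% interval is that of the fit. Relations with marker lists used 100000 permutations within groups, and the exact tests enumerated all 462, 3003 or 1287 arrangements. The pipeline was tested on simulated data.

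The genes named were the 10 members, pathway genes called in a comparison, the leading gene of each pathway group by CPM, called markers and the 3 genes most like each member. The results of some marker genes are not reported here. Cda, Dpys, Rrm1, the Ces2 genes, Ugt1a1, Slco1b2 and Slc22a7, and genes called under an alternative alone, were named after their values were seen. The members and lists were chosen with earlier results of these data known. Alternatives were DESeq2 1.42.0, limma 3.58.1 voom, other normalisations, filters, thresholds and samples. Promoter sequences are from RefSeq (GRCr8). Figures were drawn with matplotlib 3.10.9.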

Additional observations from a re-analysis of the deposited data

Results flagged for a closer look

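Of 30 groups of samples examined (each member in each condition), 2 held a value far from the rest by Dixon's criterion, which chance meets in about 1 in 20 groups. Tyms was 2.82 CPM in CHEMO STD 5, the highest of CHEMO STD, where the other samples lay between 1.47 and 1.95 CPM. The count behind it was small, and the spread of Tyms in that group was below counting noise (variance ratio 0.504). Top1 was 53.0 CPM in CHEMO FO 18, where the other CHEMO FO samples lay between 9.86 and 20.3 CPM. The same sample was the lowest of CHEMO FO for Slc29a1 (18.5 CPM), Abcc1 (48.1 CPM) and Tyms (1.30 CPM), and the highest for Abcg2 (1.39 CPM) and Uck2 (46.3 CPM). Its TMM factor was 1.18, against 0.928 to 1.06 in the other samples.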

How the results depend on the processing

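Limits. Tyms, Dpyd and Abcg2, and Tymp in some samples, rest on few counts, so small changes were not detectable. How reads of near-identical copies or antisense genes were counted is not known. No paired analysis was possible because no replicate number occurs in more than 1 group. Where a value changed, the cause was not tested unless the setting itself tests more genes or uses fewer samples.

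Genes called numbered, for CHEMO STD against TUMOUR STD, CHEMO FO against CHEMO STD and CHEMO FO against TUMOUR STD in that order, 971, 722 and 1116 with no low-count filter, 762, 528 and 1059 with no fold threshold, and 742, 494 and 1022 at 1.2-fold. The first numbered 603 with CHEMO STD replicates 1 and 2 left out, and the last 201 without TUMOUR STD 10 and CHEMO FO 18, a setting chosen after seeing the data. With each library left out, the first ranged from 161 (without TUMOUR STD 10) to 530 (without TUMOUR STD 8, and 450 without TUMOUR STD 11), and the last from 273 (without CHEMO FO 18) to 584.

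Members called in CHEMO STD versus TUMOUR STD numbered 1 with limma voom (Top1mt, 0.59) and 2 with no fold threshold or at 1.2-fold (Slc29a1 -0.41, Abcc1 -0.33), and in CHEMO FO versus TUMOUR STD 1 with either lower threshold (Slc29a1, -0.38) and 0 to 1 (Dpyd, -0.63 or -0.59) with a library left out. Pathway genes called in CHEMO STD versus TUMOUR STD numbered 1 (Fpgs) with replicates 1 and 2 left out and 0 to 1 (Dut) with a library left out. In CHEMO FO versus CHEMO STD they numbered 2 with no fold threshold (Uck2, Rrm1), 0 with limma voom (Uck2 0.36), with edgeR or DESeq2 on only the 2 groups compared (0.65 and 0.63) and without TUMOUR STD 10 and CHEMO FO 18 (0.21), and 0 to 1 with a library left out. With replicates 1 and 2 left out, Uck2 was 0.61 and not called, while Fpgs was called at 0.66 (edgeR, unadjusted p 0.0291). In the same setting Fpgs was -0.71 in CHEMO STD versus TUMOUR STD, and these comparisons share CHEMO STD. In CHEMO FO versus TUMOUR STD, pathway genes called numbered 1 (Tdp1) with limma voom and 0 to 2 (Uprt, Slc29a3, Tdp1, Slc29a2) with a library left out. The share of all genes called with limma voom is not given here, so its calls cannot be set against a background. For the other settings, whether members or pathway genes were called more often than all genes was not tested. These counts therefore do not set members or pathway genes apart from other genes.

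Several log2 fold changes changed sign, near 0 with all samples except for Top1 in CHEMO FO versus TUMOUR STD (0.26). With replicates 1 and 2 separate, Upp1 (-0.040) and Slc29a1 (-0.015) did in CHEMO FO versus CHEMO STD. With both left out, Tymp (-0.066) did in CHEMO STD versus TUMOUR STD, and Tyms (-0.0020) and Top1 (-0.071) between the diets. With library totals, Tyms (-0.023) and Slc29a1 (-0.0032) did between the diets, and with DESeq2 Top1 (-0.014 on all groups and -0.015 on 2). With limma voom, Tyms (0.056) and Upp1 (0.0072) did in CHEMO STD versus TUMOUR STD, Top1 (-0.34), Umps (0.0073) and Upp1 (-0.17) between the diets, and Tyms (0.21), Top1 (-0.15) and Tymp (0.033) in CHEMO FO versus TUMOUR STD. Without TUMOUR STD 10 and CHEMO FO 18, Upp1 (0.071) did in CHEMO STD versus TUMOUR STD, Top1 (-0.36) and Upp1 (-0.15) between the diets, and Tyms (0.071) and Top1 (-0.25) in CHEMO FO versus TUMOUR STD.

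With each library left out, values ranged in CHEMO STD versus TUMOUR STD from -0.21 to 0.027 for Tyms, -0.16 to 0.060 for Upp1 and -0.026 to 0.21 for Tymp. In CHEMO FO versus CHEMO STD they ranged from -0.077 to 0.11 for Tyms, -0.36 (without CHEMO FO 18) to 0.10 for Top1, -0.19 to 0.0063 for Umps, -0.14 to 0.10 for Upp1, -0.037 to 0.11 for Slc29a1 and -0.033 to 0.10 for Abcc1, and for Uck2 from 0.21 to 0.76. In CHEMO FO versus TUMOUR STD they ranged from -0.21 to 0.042 for Tyms, -0.10 to 0.40 for Top1, -0.19 to 0.065 for Upp1, -0.18 to 0.066 for Tymp and -0.63 to -0.24 for Dpyd. The Abcg2 difference there ranged from -0.93 to -0.59. Pearson's r ranged from -0.061 to 0.37 for Abcg2 and 0.50 to 0.79 (without TUMOUR STD 12) for Slc29a1 with endothelial genes, and from 0.29 to 0.54 for Tymp and 0.31 to 0.56 for Upp1 with macrophage genes. Slc29a1 passed the adjusted threshold with replicates 1 and 2 separate (r 0.595, adjusted permutation p 0.0415), without TUMOUR STD 12 or without CHEMO FO 16, and Tymp and Upp1 did without CHEMO FO 16.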
